A study of Mus musculus with 18 samples.

Results

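Mir140 is the mouse microRNA locus described here, 1 of 2009 microRNA loci listed in the count tables of this study. It was chosen from its counts over the 4 groups of the study, so the levels and differences of Mir140 given below describe it and carry no test. The locus has the identifier ENSMUSG00000065439 in the tables and lies on the plus strand of chr8:107551244-107551313 in build GRCm38, over 70 bases. These bases fall in intron 16 of the ubiquitin ligase gene Wwp2 (chr8:107436365-107558595), 1108 bases after exon 16 and 963 bases before exon 17. The nearest kept microRNA locus before it, Mir328, was 2242880 bases away.

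The study sequenced small RNA from adipose stromal cells (ASC) of mice and from the extracellular vesicles (EV) that the cells released, each with and without interferon gamma. All libraries were labelled strain NGL, adipose tissue and adult age, with no other genotype or allele given. Primed cells received interferon gamma for 24 hours in medium with 2% vesicle-depleted serum, and primed and naive cells alike were then cultured for 48 hours in such medium. There were 5 naive EV, 5 primed EV, 4 naive ASC and 4 primed ASC libraries. Cell RNA was purified with TRIzol and RNeasy columns and vesicle RNA with the SeraMir kit, so the RNA source and the purification cannot be told apart. Every library took 5 µl of RNA into the TruSeq small RNA kit, whatever the amount of RNA in it. The labels give the same vesicle microRNA subtype to the cell libraries, and they do not say that replicates came from separate animals or cultures. The spread between replicates may therefore be technical, biological or both, which the labels do not settle. The interferon gamma dose and the number of mice were not given in the labels used here.

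A microRNA is cut from a hairpin transcript, and 1 arm or both arms of the hairpin are loaded into Argonaute proteins, where the seed at bases 2 to 8 pairs with target messenger RNAs. miR-140 is known as a microRNA of cartilage: the chondrocyte factor Sox9 activates its locus within Wwp2, and mice without it have short bones and early joint degeneration. Interferon gamma is used to prime stromal cells because it turns on their immunoregulatory programme, and vesicles carry a part of the cells' small RNA to other cells.

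The sequences of the hairpin and of its 3p arm are shown because the counts of this locus are reads on the hairpin, with both arms added together. They were taken from RefSeq (assembly GRCm38.p6). The capitals in the hairpin mark miR-140-3p, at bases 45 to 65, and those in the mature sequences mark the seed.
Mir140 hairpin: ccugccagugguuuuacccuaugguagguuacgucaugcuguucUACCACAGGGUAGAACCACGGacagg
mmu-miR-140-3p: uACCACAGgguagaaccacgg
mmu-miR-497b: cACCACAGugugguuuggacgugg
The 3p seed ACCACAG was shared by 2 of 1738 mature entries in the RefSeq table, miR-140-3p and miR-497b. The arm miR-140-5p is named only. Of 1005 hairpins, 0 others shared a run of 15 bases with the Mir140 hairpin and 1, Mir140 itself, held the whole of miR-140-3p. The GC content of the hairpin was 52.9%, against a median of 51.7% over all hairpins.

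Library totals ran from 180812 counts in primed ASC replicate 4 to 3052942 in primed EV replicate 2, and the filter on low counts kept 245 loci with 99.9573% of the counts. Mir140 was deeply counted in every library, with 2099 to 28708 counts and 195264 in all. Levels are given as CPM, the usual depth-corrected counts, with library sizes scaled by the trimmed mean of M values (TMM), which aligns the bulk of loci between libraries. MicroRNA markers of stromal cells were abundant in both sources: 13 listed loci, among them Mir21a, Mir22, Mir143 and Mir10a, summed to 228704 to 484167 CPM in the ASC groups and to 629794 to 1071456 CPM in the EV groups. Single listed loci went in both directions. Mir22 averaged 296393 CPM in naive EV and 126531 CPM in naive ASC, whereas Mir145a averaged 1722 and 11930 CPM and Mir125b-1 8907 and 42202 CPM. Scaled library sizes differ from the totals, so these CPM need not add to the same sum in every library. Markers of blood and endothelial cells were higher in vesicles. The haematopoietic list (6 of 7 loci in the files) summed to 3972 to 17399 CPM in naive EV and 1677 to 9229 CPM in primed EV, against 109 to 178 CPM in naive ASC and 79.5 to 419 CPM in primed ASC. The endothelial marker Mir126a (1 of 2 listed loci in the files) gave 3673 to 10544, 2251 to 6948, 86.7 to 240.2 and 52.2 to 444 CPM in the same order. The highest haematopoietic and endothelial values were both in naive EV replicate 4, which was also the library with the lowest Mir140. Of 11 epithelial loci, summed levels were 3123 to 16010, 4039 to 8933, 8244 to 16528 and 3576 to 11652 CPM. These sums hide wide spreads of single loci. Mir205 ran from log2 CPM 3.57 to 10.9 in naive EV and 2.57 to 9.09 in primed EV. In naive ASC it ran from 4.32 to 10.9 and in primed ASC from 5.36 to 9.95. By contrast, Mir182 ran from 11.4 to 13.7 over all libraries. Mir205 and Mir200b were highest in replicates 3 and 4 of every group, but Mir183 was so in naive EV alone. In primed ASC Mir183 was highest in replicate 5, at log2 CPM 10.3. What the replicate number marks was not tested. The liver marker Mir122 reached at most 19.8 CPM, and the striated muscle list (8 of 9 loci in the files, Mir133a-1 and Mir133a-2 at 0 throughout) at most 48.2 CPM. The 8 neural loci, of which Mir124a-1, Mir124a-3, Mir9-1 and Mir9-2 were at 0 throughout, summed to at most 74.7 CPM. The part of these other cells in the Mir140 values was not tested.

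The level of Mir140 differed in steps across the 4 groups: it was lowest in naive vesicles, higher in primed vesicles, higher again in naive cells and highest in primed cells. In naive EV replicates 1 to 5, Mir140 stood at 5718, 5539, 5696, 3486 and 4819 CPM. In primed EV replicates 1 to 5 it stood at 9623, 8281, 9340, 9544 and 8361 CPM. Every primed vesicle library was above every naive one, and replicate 4 was the low library of the naive group. In naive ASC replicates 1, 3, 4 and 5, Mir140 stood at 17038, 11617, 10696 and 17570 CPM. In primed ASC replicates 2, 3, 4 and 5 it stood at 26091, 34491, 25885 and 28229 CPM. The naive cells fell into a lower and a higher pair of libraries, and replicate 3 was the high library of the primed cells. The means were 5052 ± 949 CPM in naive EV (SD, n = 5), 9030 ± 656 CPM in primed EV (SD, n = 5), 14230.5 ± 3576 CPM in naive ASC (SD, n = 4) and 28674 ± 4020.4 CPM in primed ASC (SD, n = 4). In bulk samples, fewer cells or vesicles that carry Mir140 and less Mir140 in each cannot be told apart.

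**Figure D1:**
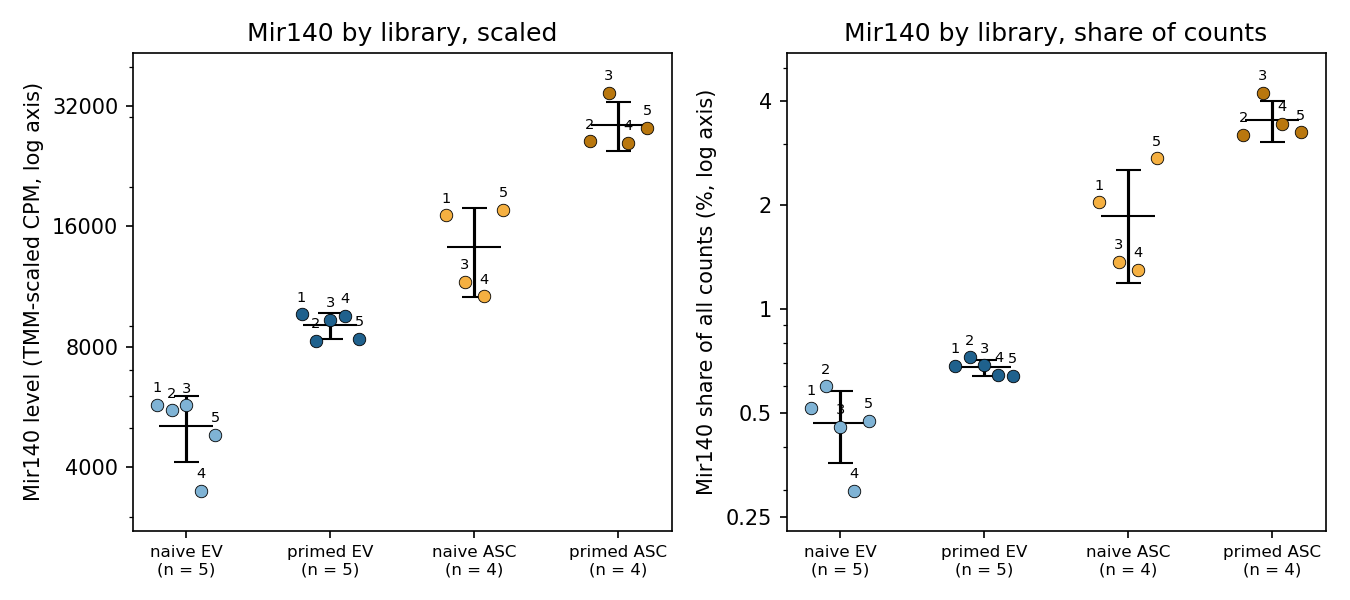
Mir140 in each of 18 libraries, as TMM-scaled CPM (left) and as percent of all counts of the library (right), both on log axes. Points are libraries with their replicate number and bars are the group mean ± SD; no neighbouring groups overlap on either scale, and the closest are primed EV (at most 9623 CPM) and naive ASC (at least 10696 CPM) on the left, and naive EV (at most 0.599%) and primed EV (at least 0.641%) on the right.

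As a share of all microRNA counts, Mir140 made up 0.470% ± 0.110 of naive EV (SD, n = 5), 0.678% ± 0.0354 of primed EV (SD, n = 5), 1.86% ± 0.671 of naive ASC (SD, n = 4) and 3.53% ± 0.477 of primed ASC (SD, n = 4). The order of the groups therefore did not need the TMM scaling. With library totals alone, the highest naive EV library was at 5991 CPM and the lowest primed EV library at 6414 CPM, which left the narrowest gap on that scale. When the 5 most abundant loci (Mir22, Mir143, Mir21a, Mir10a and Mir10b) were left out of the totals, the narrowest gap lay between the highest primed EV library, at 24152, and the lowest naive ASC library, at 24955 CPM. The 4 groups stayed apart, in the same order, under these 3 scalings.

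The spread within groups was small in primed vesicles. The coefficient of variation of Mir140 was 18.8% in naive EV, 7.27% in primed EV, 25.1% in naive ASC and 14.0% in primed ASC. On the log2 CPM scale the SD in primed EV was 0.11, and only 3 of 245 loci had a smaller one there, where the median SD over all loci was 0.42. In naive EV the SD was 0.30 against a median of 0.40, with 66 loci below it. In primed ASC it was 0.19 against 0.48, with 20 loci below it. Naive ASC was different: the Mir140 SD of 0.37 equalled the median of 0.37, and 120 loci had a smaller one. These ranks were taken over loci of all levels, scarce ones included. Mir140 was among the abundant loci, at ranks 15 to 17 by counts in primed EV and 8 to 9 in primed ASC. Whether its spread was small for a locus of its level was not tested.

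Hairpins differ in length, so levels were compared between loci per base of hairpin. Reads come mostly from the short mature arms, and this division favours short hairpins such as the 70 bases of Mir140: each locus named just below it had the higher CPM before division. Mir140 ranked 26th of the kept loci in naive EV by its mean of 72.2 CPM per base, between Mirlet7f-1 at 73.2 and Mirlet7b at 69.0, both of the let-7 family of differentiation-linked microRNAs. It ranked 13th in primed EV at 129 CPM per base, between Mir125b-1 at 152 and Mir148a at 125. The libraries of Mir140 overlapped those of both neighbours in each vesicle group. In naive ASC it ranked 10th at 203 CPM per base, between Mirlet7c-1 at 286 and Mir30d at 175. In primed ASC it ranked 8th at 410 CPM per base, between Mir191 at 500.3 and Mir10a at 353. In naive cells every Mirlet7c-1 library (259.6 to 322 CPM per base) was above every Mir140 library (153 to 251), while Mir30d (158 to 195) lay within the range of Mir140. In primed cells the ranges of both neighbours overlapped that of Mir140 (369.8 to 493 CPM per base). Over single libraries, its rank per base ran from 18 to 32 in naive EV and from 7 to 8 in primed ASC, and by counts alone from 24 to 35 and from 8 to 9.

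The first pair of comparisons asks how vesicles differ from the cells that released them. Mir140 was lower in vesicles than in cells under both conditions. In naive samples its level in EV was 2.82-fold below that in ASC (log2 difference -1.49, SE 0.18 from the edgeR fit over all 18 libraries). In primed samples it was 3.18-fold below (log2 difference -1.67, SE 0.18). The lowest cell library exceeded the highest vesicle library by 4978 CPM in naive and by 16262 CPM in primed samples. Many loci separated the sources in this way: the libraries of the groups did not overlap for 58.4% of the 245 loci in naive and 53.5% in primed samples. Mir140 was the 32nd lowest of 245 log2 differences in each, while the median over all loci was -0.24 in naive and 0.02 in primed samples.

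The second pair of comparisons asks what interferon gamma changed within each source. Mir140 was higher after priming in both. In EV it was 1.79-fold higher (log2 difference 0.84, SE 0.17), with 2563 CPM between the highest naive and the lowest primed library. In ASC it was 2.02-fold higher (log2 difference 1.01, SE 0.19), with a gap of 8315 CPM. Few loci separated in this way: the naive and primed groups did not overlap for 2.45% of 245 loci in EV and for 11.4% in ASC. Mir140 had the 7th highest log2 difference of 245 in EV and the 17th highest in ASC, where the medians over all loci were 0.02 and -0.12. The priming difference in EV minus that in ASC was -0.17 on the log2 scale (SE 0.25), an estimate smaller than its error in this fit. Under 11 other ways of processing it ran from -0.50 to -0.11, so its size against that error depended on the processing. Relative to the median over all loci it was -0.28 to -0.23 over 5 scalings.

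The 6 loci whose vesicle libraries separated by priming were Mir140, Mir147, Mir3095, Mir148a, Mir155 and Mir101b, named here after their values were seen. In cells 28 loci separated. Mir140 and Mir147 were the 2 loci, 0.816% of 245, that separated and were higher in primed samples of both sources. Mir147 is known as a microRNA of activated macrophages, and its log2 differences were 3.15 (SE 0.49) in EV and 2.71 (SE 0.76) in ASC. Mir147 was scarce in cells, at log2 CPM 0.981 to 1.93 in naive ASC and 2.49 to 4.66 in primed ASC. Mir140 ran from 13.4 to 14.1 in naive ASC, so the separation of Mir147 in cells rests on far lower levels. Mir3095 was scarce in vesicles, at log2 CPM 0.0987 in naive EV replicates 2, 3 and 4. Mir140 was the 1 locus of 245 whose 4 groups were all apart from one another. It was chosen for that order, so the count describes the choice.

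**Figure D2:**
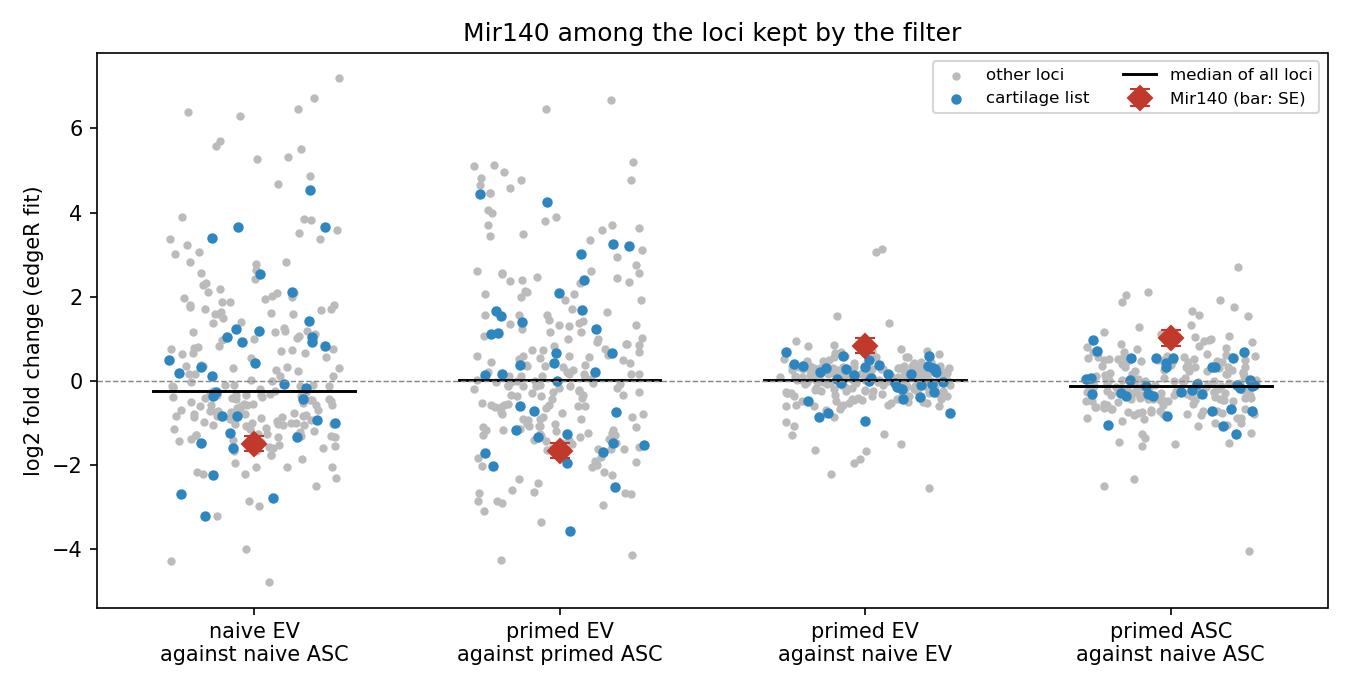
Log2 fold changes of the 245 kept loci in the 4 comparisons (vertical axis, edgeR fit), with Mir140 as a diamond with its SE, the cartilage-linked loci in blue, other loci in grey and the median of all loci as a line. Mir140 lies at -1.49 and -1.67 in vesicles against cells and at 0.84 and 1.01 in primed against naive samples.

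Other scalings moved the values of Mir140 together with those of all loci. Library totals shifted the median over all loci to -0.70 in naive and -0.69 in primed vesicles against cells. Taken relative to that median, Mir140 stood at -1.28 to -1.22 in naive and -1.69 to -1.67 in primed vesicles against cells over 5 scalings. The same range was 0.78 to 0.82 for priming in EV and 1.11 to 1.15 for priming in ASC. Naive EV replicate 4 is the library with the lowest Mir140. Without it, and with TMM scaling, the value relative to the median went from -1.26 to -1.09 in naive EV against ASC and from 0.82 to 0.65 for priming in EV.

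Sample titles carry numbers, which allow libraries with the same number to be set side by side. The labels do not say that a shared number marks a shared culture, and these ratios are a description. Title numbers differ from the replicate numbers used here, which come from the source names, for primed EV replicate 1, whose title carries the number 5. In 9 pairs of an EV and an ASC library with the same title number, the vesicles held 27.1% to 49.0% of the Mir140 level of the cells. The 5 primed pairs lay between 27.1% and 36.9% and the 4 naive pairs between 27.4% and 49.0%, with the highest in replicate 3. In 5 pairs with the same title number, primed vesicles held 1.5 to 2.74 times the level of naive vesicles, with the highest ratio from naive EV replicate 4. Primed EV replicates 1 and 5 shared the same naive library here and the same primed ASC library above, and primed EV replicate 1 stood at 2.00 times that library. Paired by source name instead, it stood at 1.68 times naive EV replicate 1. In 3 such pairs of cells, the ratios were 2.97, 2.42 and 1.61. Every one of the 5 vesicle and 3 cell pairs was higher on the primed side. Any other pairing would give the same direction, because the groups did not overlap, so the direction adds nothing to that.

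**Figure D3:**
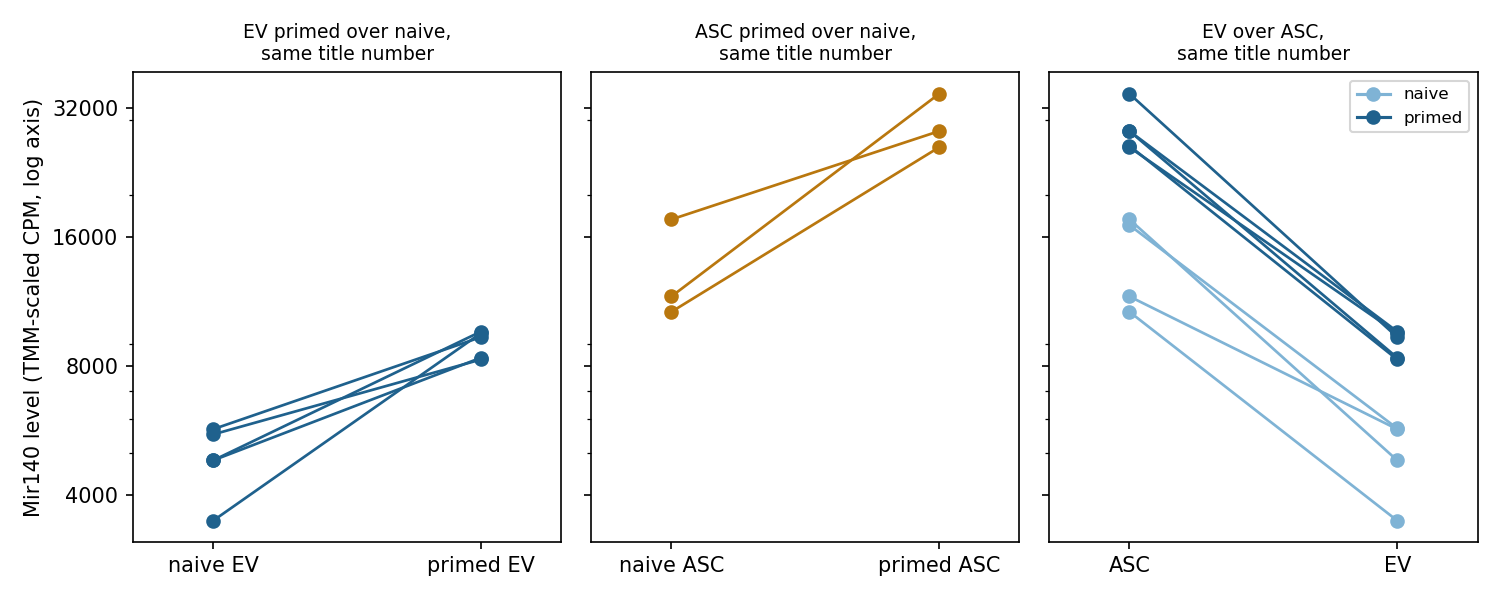
Mir140 level (TMM-scaled CPM, log axis) in libraries joined by the number in their titles: primed over naive vesicles, primed over naive cells, and vesicles over cells. Lines join 2 libraries. The 5 vesicle and 3 cell pairs go up with priming, and the 9 pairs of cells and vesicles go down. Any pairing would do so, because the groups do not overlap.

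The loci with a pattern most like Mir140 were sought among 243 others by Pearson's r of log2 CPM, as a description with no test. The libraries share depth, source and treatment, so r over all 18 libraries mostly reflects the 4 group means. The 5 highest were Mir125b-2 (r = 0.97), Mir125b-1 (0.93), Mir151 (0.93), Mir671 (0.91) and Mir7224 (0.91), against a median r of -0.03 over the compared loci. Mir125b-1 and Mir125b-2 give the same 5p microRNA, the mammalian counterpart of the worm timing gene lin-4, and differ in their 3p arms. Mir151 lies in an intron of the focal adhesion kinase gene Ptk2. The mature sequences of the 125b loci are shown because they came first in this order and because the shared 5p arm limits how reads can be told apart.
mmu-miR-125b-5p: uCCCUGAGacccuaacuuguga
mmu-miR-125b-1-3p: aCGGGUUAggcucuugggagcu
mmu-miR-125b-2-3p: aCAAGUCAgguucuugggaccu
A read of miR-125b-5p matches 2 loci. Counting used no option for reads that map to several places, so such reads were not split between loci and could be dropped. Mir125b-2 averaged 1088 CPM in naive EV, 1633 in primed EV, 2729 in naive ASC and 5380 in primed ASC, the same order as Mir140. Mir125b-1 was at 8907, 11734, 42202 and 67446 CPM. Its log2 difference between naive vesicles and cells, -2.24, was larger than that of Mir140, and its priming difference in EV, 0.40, was smaller. Mir7224 was a scarce locus, with group means of 12.3 to 118 CPM.

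Subtracting the group means leaves the variation between replicates. The 5 loci that then varied most like Mir140 were Mir34b (r = 0.79), Mir214 (0.70), Mir129-2 (0.64), Mir125b-1 (0.64) and Mir218-1 (0.63), and the median over compared loci was 0.02. Mir34b belongs to a family of p53-induced microRNAs, Mir214 lies in the mesenchymal transcript Dnm3os, and Mir218-1 lies in an intron of Slit2. Mir34b averaged 396, 461, 578 and 1052 CPM in naive EV, primed EV, naive ASC and primed ASC. The lowest values were those of Mir192 (r = -0.66), Mir200c (-0.63) and Mir96 (-0.59), microRNAs known from epithelia. Mir200c and Mir96 were scarce, with group means of 4.30 to 27.5 and 3.38 to 22.7 CPM, and Mir218-1 had 17.1 to 63.4 CPM. Naive EV replicate 4, the library with the lowest Mir140, lay far from its group for Mir200c (93.0 CPM) and Mir218-1 (4.98 CPM). How far these r rest on that library was not tested. Mir192 was more abundant in vesicles, at 978 and 1010 CPM, than in cells, at 244 and 183 CPM. Of the 5 closest loci, 4 stayed among the 5 with library totals and 3 with Spearman's rank in place of Pearson's r. After subtraction of the group means, 3 of 5 stayed under either change.

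**Figure D4:**
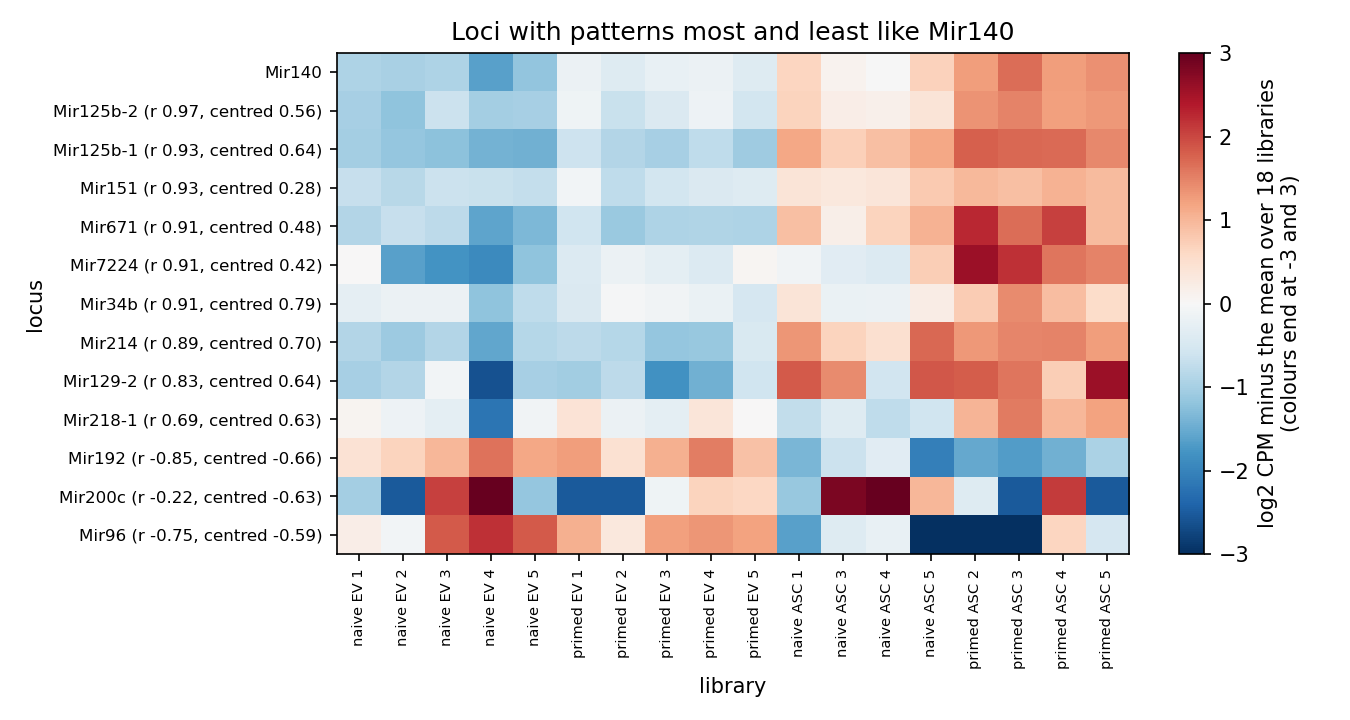
Log2 CPM minus the locus mean over 18 libraries (colour, ending at -3 and 3) for Mir140 and the 12 loci with the most and least similar patterns. Rows are loci with r over 18 libraries and r after subtraction of group means, and columns are libraries; Mir140 is lowest in naive EV replicate 4 and highest in primed ASC replicate 3.

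Mir497b, the locus of the other microRNA with the 3p seed, averaged 173 ± 64.0 CPM in naive EV (SD, n = 5), 245 ± 62.5 in primed EV (SD, n = 5), 349 ± 64.4 in naive ASC (SD, n = 4) and 417 ± 135 in primed ASC (SD, n = 4). Its locus on chr11:70234692-70234816 also holds Mir497 on the opposite strand. Counting ignored strand, so the counts of the 2 hairpins cannot be told apart.

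Other microRNAs linked to cartilage and chondrocyte differentiation were read from a list of 50 loci, of which 36 passed the filter and entered the quasi-likelihood test of edgeR, with p adjusted by Benjamini-Hochberg over all 245 loci. In naive vesicles against cells, 23 of the 36 passed an adjusted p of 0.05, 13 higher and 10 lower, where 66.1% of all loci passed (33.5% higher and 32.7% lower). Their median log2 fold change was 0.14, against -0.24 over all loci. In primed vesicles against cells, 30 of 36 passed, 16 higher and 14 lower, where 68.2% of all loci passed (35.9% higher and 32.2% lower), and the medians were 0.29 and 0.02. In naive samples the list's share, 63.9%, and its split by direction were near those of all loci. In primed samples the list's share, 83.3%, was above the 68.2% of all loci, and this difference was not tested.

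The largest increases in vesicles were those of Mir101a, which represses the histone methyltransferase Ezh2. It averaged 1278 ± 314 CPM in naive EV (SD, n = 5) and 55.6 ± 31.0 CPM in naive ASC (SD, n = 4), 23.3-fold higher in vesicles (log2 fold change 4.54, SE 0.35, edgeR adjusted p = 1.4e-09). In primed samples its log2 fold change was 4.43 (SE 0.35). Its relative Mir101b rose by 3.67 and 4.24 in naive and primed samples. Mir335, which lies in the imprinted gene Mest, rose by 3.66 and 3.26, from low means of 5.48 CPM in naive ASC and 4.42 CPM in primed ASC. Mir29c, of a family that represses collagen genes, rose by 3.39 and 3.01, from means of 8.61 CPM in naive ASC and 11.8 CPM in primed ASC. Mir98 of the let-7 family rose by 2.54 in naive and 3.21 in primed samples.

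The largest decrease was that of Mir193b, a microRNA known from brown fat differentiation. It averaged 86.1 ± 22.9 CPM in naive EV (SD, n = 5) and 801 ± 264 CPM in naive ASC (SD, n = 4), with a log2 fold change of -3.22 (SE 0.27, edgeR adjusted p = 3.7e-09). In primed samples it was -3.58 (SE 0.27). Mir145a, a smooth muscle microRNA that represses Sox9, was at -2.79 and -2.02 in naive and primed samples, and Mir125b-1 at -2.24 and -2.52. Mir29b-1 was at -2.70 in naive samples, with means of 3.87 CPM in EV and 26.5 CPM in ASC. In primed samples it was at -1.35 (edgeR adjusted p = 0.0236). Mir26a-2 was at -1.95 in primed samples, with means of 3.41 and 12 CPM, and this call was lost in 1 alternative (adjusted p = 0.0774).

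Mir455, which lies in an intron of the cartilage collagen gene Col27a1 and is expressed with Mir140 in cartilage, was also lower in vesicles. It averaged 75.1 ± 45.7 CPM in naive EV (SD, n = 5), 56.8 ± 24.6 in primed EV (SD, n = 5), 177 ± 33.5 in naive ASC (SD, n = 4) and 166 ± 73.0 in primed ASC (SD, n = 4). The log2 fold changes between vesicles and cells were -1.24 in naive (SE 0.40, edgeR adjusted p = 0.0103) and -1.52 in primed samples (SE 0.41, edgeR adjusted p = 0.00279). With priming its values were -0.39 in EV (SE 0.38, edgeR adjusted p = 0.721) and -0.11 in ASC (SE 0.42, edgeR adjusted p = 0.888), and neither passed the test. The mature arms are shown for comparison with miR-140-3p, with seeds in capitals.
mmu-miR-455-5p: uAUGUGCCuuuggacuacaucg
mmu-miR-455-3p: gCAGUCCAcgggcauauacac
Mir675, the microRNA of the H19 transcript and another chondrocyte microRNA, had 0 to 4 counts per library and was not tested.

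Under priming, the share of the list that passed was near that of all loci. In EV 0 of 36 passed edgeR's adjusted p, where 0.816% of all loci passed, each of them higher. At an unadjusted p below 0.05 there were 5 listed loci, where 10.2% of all loci were, and DESeq2 called 1 listed locus of the 5 it called in all, and limma-voom 0. Mir125b-2 had a log2 fold change of 0.59 in EV (SE 0.16, edgeR adjusted p = 0.0834), and it passed in 2 of 12 alternatives and in 4 of 18 fits that left out a library. The list's median log2 fold change was 0.10, against 0.02 over all loci. In ASC 4 of 36 passed, 2 higher and 2 lower, where 10.2% of all loci passed (5.31% higher and 4.9% lower), and the median was -0.12 both in the list and over all loci. The increases were those of Mir125b-2 (log2 fold change 0.98) and Mir125b-1 (0.68), and the decreases those of Mir495, of the imprinted Dlk1 to Dio3 cluster (-1.26), and Mir98 (-0.83). The Mir125b-1 call was lost in 2 of 12 alternatives and in 2 of 18 fits that left out a library. Those of Mir495 and Mir98 were each lost in 9 of 12 and 15 of 18. The Mir495 calls that were lost had adjusted p from 0.0501 to 0.199, and those of Mir98 from 0.0575 to 0.207. The count of 4 became 1 without naive ASC replicate 3 or 4, and 2 without naive EV replicate 1, 2 or 3, primed EV replicate 1, 3 or 4, or primed ASC replicate 4. For the difference between the priming effects in EV and ASC, edgeR called 0 listed loci and 0 of all loci, with 4 listed loci and 26 of all loci (10.6%) at an unadjusted p below 0.05. Over all loci DESeq2 called 3 and limma-voom 0.

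**Figure D5:**
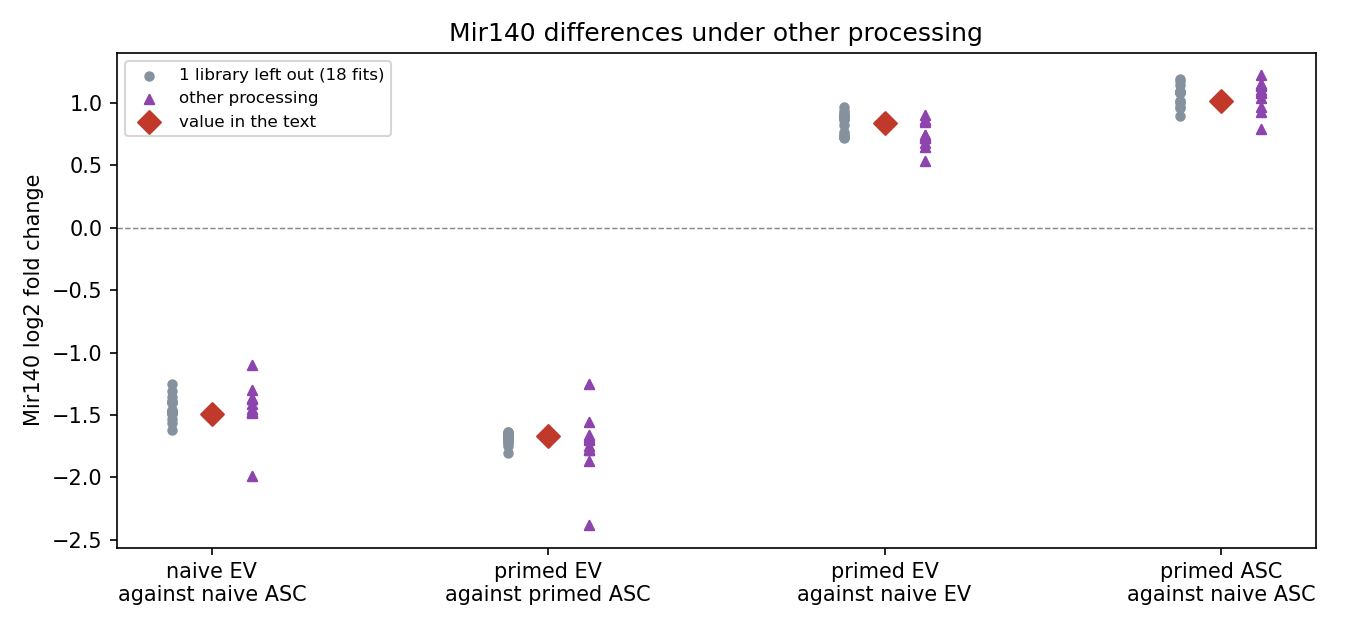
Mir140 log2 fold change (vertical axis) in the 4 comparisons as given in the text (diamonds), in 18 fits that each left out 1 library (grey) and under 12 other ways of processing (triangles). All points of a comparison lie on the same side of 0, and library totals alone give the lowest triangles in the comparisons of vesicles with cells, -1.99 and -2.38.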

How the data were processed

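The deposited files hold whole-number counts of reads per microRNA hairpin locus, 1 file for each of 18 libraries. Per the file headers, the authors counted with featureCounts 1.5.3 on microRNA annotation from Ensembl (release 76), ignoring strand and with no option for reads that map to several places. Per the submitters' processing notes, reads were demultiplexed with bcl2fastq and aligned to GRCm38 with STAR 2.0.4, and the notes give featureCounts as 1.45, a version number that differs from the headers. Both arms of a hairpin and both strands of a locus are added together in these counts. Names came from GENCODE M21, which matched 1899 of 2009 identifiers (1820 with identical coordinates), and from RefSeq hairpins at the same place (6 loci) or inside the locus on either strand (7 loci, among them Mir191 and Mirlet7f-1). The 110 loci with no identifier match held 5 of 17629699 counts.

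Counts were analysed in R 4.3.3 with edgeR 4.0.16: filterByExpr kept 245 loci, libraries were scaled by TMM, and quasi-likelihood models with 1 mean per group were fitted to all 18 libraries, with Benjamini-Hochberg adjustment over the 245 loci. The script was tested on simulated data. Log2 CPM used a prior count of 1. The other ways of processing were TMMwsp and relative log expression factors, library totals with and without the 5 most abundant loci, no filter (689 loci), at least 10 counts in 4 libraries (254 loci), DESeq2 1.42.0, limma-voom (limma 3.58.1), replicate blocks, thinning of all libraries to 180812 counts, and fits to the groups compared alone. Each library was also left out in turn.

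Mir140 and the gene lists were chosen with earlier results of these data known. Besides Mir140, the text names the 5 loci with the highest r to it over 18 libraries, the 5 highest and 3 lowest after subtraction of group means (loci of at least 10 CPM in the highest group), loci that share the 3p seed, the 4 largest called increases and decreases of the cartilage list in each comparison, Mir455, Mir675 and Mir145a, and the nearest loci in level per base. The loci whose vesicle libraries separated by priming and the most abundant loci were named after their values were seen. So were Mir205, Mir200b, Mir182 and Mir183 of the epithelial list. Tables and figures were made with Python 3.11.15, pandas 2.3.3, numpy 2.4.6 and matplotlib 3.10.9.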

Additional observations from a re-analysis of the deposited data

Results flagged for a closer look

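The check covered Mir140, the loci most and least like it, its neighbours in level, Mir497b and the tested cartilage loci named above. These 32 loci in 4 groups each (128 groups) were checked for a library far from the others of its group. The measure was the gap to its nearest neighbour as a share of the group's range. Other named loci, such as Mir147, Mir3095, Mir155, Mir126a, Mir205, Mir200b, Mir182 and Mir183, were not checked. Chance alone marks about 1 in 20 groups, and 8 of 128 were marked. Mir140 itself was not, with its largest gaps at 0.597 of the range for the low naive EV replicate 4 and 0.728 for the high primed ASC replicate 3. Naive EV replicate 4 stood out for Mir200c, at 93.0 CPM against 0 to 24.4 CPM in the rest, and for Mir218-1, at 4.98 CPM against 21.6 to 28.4 CPM. Naive EV replicate 1 held 27.9 CPM of Mir7224 against 6.64 to 11.6 CPM. Primed EV replicate 3 held 99.6 CPM of Mir455 against 39.5 to 53.3 CPM. Naive ASC replicate 5 held 7939.9 CPM of Mir151 against 5649 to 5984 CPM. Primed ASC replicate 5 held 6475 CPM of Mir148a against 2843 to 3262 CPM. Primed ASC replicate 2 held 719 CPM of Mir193b against 1067 to 1129 CPM. Primed ASC replicate 4, the shallowest library, held 24.9 CPM of Mir200c against 0 to 3.64 CPM.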

How the results depend on the processing

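Mir140 kept its direction in the 4 comparisons under the 12 other ways of processing and in the 18 fits that left out 1 library. With library totals alone its log2 differences were -1.99 and -2.38 in naive and primed vesicles against cells and 0.53 for priming in EV. With totals that leave out the 5 most abundant loci they were -1.10 and -1.25 in vesicles against cells. Thinning gave -1.86 in primed vesicles against cells. The difference between the priming effects was -0.45 with TMMwsp and -0.50 after thinning, and fits to 2 groups alone give no such value. With 1 library left out, Mir140 ranged from -1.62 to -1.25, from -1.81 to -1.63, from 0.72 to 0.97, from 0.90 to 1.19 and from -0.45 to -0.0335 for the difference of priming effects.

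Counts of called loci under priming were small and moved with the settings, and the cause was not tested. In EV, where 2 loci were called, the count was 1 with TMMwsp, library totals, totals without the 5 most abundant loci, or the stricter filter, 0 after thinning, 5 with DESeq2 and 8 with no filter. In ASC, where 25 were called, it was 15 in the fit to those groups alone. The cartilage list had 2 called loci in ASC with TMMwsp, relative log expression factors, no filter, the stricter filter or the 2 groups alone, and 1 in EV with DESeq2. For the difference of priming effects, no filter and DESeq2 each gave 3 called loci.

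With 1 library left out, called loci ranged from 147 to 164 and from 154 to 168 in naive and primed vesicles against cells, 1 to 8 for priming in EV, 6 to 33 for priming in ASC and 0 to 1 for the difference. The 8 came without primed EV replicate 2, with 4 without naive EV replicate 1 and 1 without naive ASC replicate 1 or 3 or any of the primed ASC libraries. The count in ASC was 6 without naive ASC replicate 3 or 4, 11 without primed ASC replicate 3 and 12 without primed ASC replicate 4. The cartilage list ranged from 23 to 25, 28 to 31, 0 to 1, 1 to 6 and 0 to 0, with the 1 in EV reached without naive EV replicate 1 or 3 or primed EV replicate 2 or 5. Mir455, which passed in neither priming comparison, changed sign for priming in ASC to 0.0455 with relative log expression factors, 0.0453 with DESeq2 and 0.0205 in the 2 groups alone. With 1 library left out it ranged from -0.37 to 0.12 in ASC, positive without naive ASC replicate 5 (0.0863) or primed ASC replicate 2 (0.12), and from -0.57 to 0.0279 in EV, positive without naive EV replicate 3. Of the loci most like Mir140, 3 of 5 stayed with Spearman's rank, and 3 of 5 with either change after subtraction of group means.

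The labels' numbers do not say that libraries are paired. Deviations from group means correlated at -0.17 to 0.50 between libraries of the same number. Libraries of different numbers were not compared in this way, so this range cannot tell whether a number marks a pair. With a replicate block by title number Mir140 stood at -1.47, -1.67, 0.90 and 1.10, with 7 loci and 1 cartilage locus called for priming in EV. With a replicate block by source name number it stood at -1.48, -1.70, 0.86 and 1.08. Mir140 had at least 2099 counts in every library, and its values at equal depth are those given above for thinning.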
